A study of Homo sapiens with 12 samples.

Results

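The array carried 11836 probes for XLOC transcripts, which made up 23.4% of its 50599 distinct non-control probes. They were taken as every probe whose gene name in the scanner files starts with XLOC_. An XLOC name marks a locus that was assembled from RNA sequencing reads rather than named as a gene. For 8823 of the probes the description in the files speaks of a lincRNA of the Broad Institute's catalogue. A lincRNA is a long noncoding RNA transcribed from between protein-coding genes. The probes belonged to 8404 loci, of which 6417 had 1 probe and 1987 had 2 or more. For 2634 probes the name goes on with l2. A position on hg19 was given for 11741 probes and not for 95.

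Long noncoding RNAs are usually made by RNA polymerase II and spliced like mRNAs, but they are present at lower levels and in fewer cell types. Many are silenced, as genes are, when CG dinucleotides in their promoters are methylated. 5-aza-dC is a deoxycytidine analogue that is built into DNA and traps the DNA methyltransferases, so that methylation is lost as cells divide. TET1 oxidises methylated cytosine, which is a step towards its removal.

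The RNA came from Colo320DM, an established human colorectal cancer line. In 4 groups of 3 arrays, control clones and TET1 knockdown clones were each measured after mock treatment and after 72 h in 1 µM 5-aza-dC. All 6 clones carried a stably selected GFP plasmid that expresses an artificial miRNA, which was a negative sequence in control clones and was directed against TET1 in knockdown clones. Each clone grew from a single selected colony and gave 1 mock and 1 treated array, so the spread within a group is that between 3 clones. Knockdown clones 1 and 2 were made with the same artificial miRNA and clone 3 with another, if the labels number the clones as the methods do. The arrays lay on 2 slides. Slide 1 held control mock clones 1 and 2, the 3 knockdown mock clones and treated knockdown clones 1 and 3, and on slide 2 were the other control mock clone, number 3, with treated knockdown clone 2 and the treated arrays of all 3 control clones. Treatment and slide were therefore unevenly combined, and values within a slide are given beside the results they touch.

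Signals below are log2 of the processed signal relative to the 75th percentile of the array, so that 0 is the level of that percentile. A probe was well above background where the scanner software marked at least 50% of its spots so. It was tested where it was well above background on at least 3 arrays of the comparison. Raised and lowered stand for probes with a Benjamini-Hochberg adjusted p below 0.05 in limma, adjusted over all probes of the array that were tested. The 75th percentile of the processed signal was 359.6 to 539 over the 12 arrays, 45.7% to 52.9% of all probes were well above background, and no spot was saturated. TET1 had 3 probes, which in mock knockdown clones stood at 52.7%, 39.3% and 47.5% of the control mean. The exact permutation p was 0.1, 0.1 and 0.2 (two-sided, n = 3 and 3), where 0.1 is the smallest that 3 against 3 allows, and the limma adjusted p was 0.275, 0.246 and 0.411. Of 8 colorectal epithelial markers, KRT8, KRT18, CDX1 and CDX2 were well above background on all 12 arrays, EPCAM was on 10, KRT19 on 6, VIL1 on 1 and CDH1 on 0. Of 6 markers of other cells, PTPRC, a leukocyte surface phosphatase, was well above background on 12 arrays, VWF on 7, ACTA2 on 6, CD3E on 4, DCN on 1 and PECAM1 on 0. Each marker was read at its brightest probe. Over all clones EPCAM and KRT19 were raised by 5-aza-dC (log2 change 3.74 and 3.76, limma adjusted p = 0.00404 and 0.000172). VWF was lowered (-1.63, limma adjusted p = 0.0366). None of these 3 was well above background on all arrays, so their changes are not measured sizes.

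The probes on which the results turn are 60 bases long and are shown here 5′ to 3′ as the files give them, with each CG dinucleotide in capitals because methylation falls on these. The first 4 are the loci that rose most under 5-aza-dC and XLOC_003849 is the one that fell most, by the naming rule of the methods, and XLOC_l2_006665 was the lower in knockdown clones after treatment. Their hg19 positions are chrX:152661129-152661188 (minus strand), chrX:70882845-70882904 (minus), chrX:73072144-73072203 (plus), chr2:107160692-107160751 (plus), chr4:1282952-1283011 (minus) and chr19:23330166-23330225 (plus), in the order shown.
XLOC_l2_015849: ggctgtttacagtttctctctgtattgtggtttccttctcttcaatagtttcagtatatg
XLOC_l2_015752: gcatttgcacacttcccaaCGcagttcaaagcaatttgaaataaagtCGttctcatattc
XLOC_008015: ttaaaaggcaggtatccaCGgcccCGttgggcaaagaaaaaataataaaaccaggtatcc
XLOC_001613: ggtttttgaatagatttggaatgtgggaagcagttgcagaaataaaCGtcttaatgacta
XLOC_003849: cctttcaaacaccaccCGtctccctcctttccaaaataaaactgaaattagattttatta
XLOC_l2_006665: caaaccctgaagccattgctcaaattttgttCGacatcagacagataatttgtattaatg

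Few XLOC probes gave a signal in these cells. Between 15.0% and 19.7% of them were well above background on an array, against 44.0% to 51.6% of the 3962 probes for RefSeq noncoding RNAs and 64.3% to 72.5% of the 25219 probes for RefSeq mRNAs. The share was 18.97%, 19.2% and 15.0% in control mock clones, 15.8%, 16.3% and 18.7% in knockdown mock clones, 17.5%, 16.2% and 15.4% in treated control clones and 17.3%, 16.03% and 19.7% in treated knockdown clones. The 4 groups overlapped, so no group stood out by the number of XLOC transcripts detected. XLOC probes whose names carry l2 were detected more often, with 24.4% to 29.5% per array against 12.3% to 16.9% of the others.

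**Figure D1:**
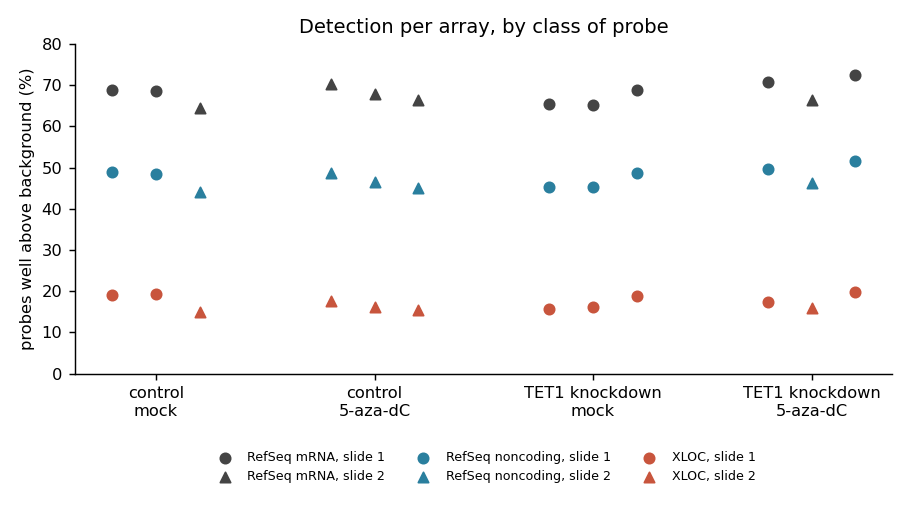
Share of probes well above background (%, vertical axis) on each of the 12 arrays, grouped by clone type and treatment. Each point is 1 array, colours mark XLOC, RefSeq noncoding and RefSeq mRNA probes, and the symbol marks the slide. XLOC probes sit between 15.0% and 19.7% in every group, below both RefSeq classes.

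On all 12 arrays 1035 XLOC probes (8.74%) were well above background, and on none were 7603 (64.2%). For RefSeq mRNA probes these shares were 58.5% and 20%, and for RefSeq noncoding probes 36.3% and 36.2%. On all 3 arrays of a group, 1415 XLOC probes were well above background in control mock clones, 1532 in knockdown mock clones, 1418 in treated control clones and 1438 in treated knockdown clones. A probe that is not well above background has only an upper bound there, and its transcript may still be present.

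Detection that followed the treatment without exception went nearly always one way. There were 25 XLOC probes, of 24 loci on 13 chromosomes, that were well above background on all 6 treated arrays and on no mock array. Of these, 4 lay on the X chromosome, 4 on chromosome 7 and 3 on chromosome 4. The opposite pattern was found for 1 probe, XLOC_004636 on chromosome 5, with a mean signal of -3.66 in mock and -5.002 in treated arrays. The 25 probes are 0.211% of the XLOC probes, beside 159 RefSeq mRNA probes (0.63%) and 31 RefSeq noncoding probes (0.782%) with the same pattern. The opposite pattern was also that of 1 RefSeq mRNA probe and 1 RefSeq noncoding probe. Detection that followed the clone type was rarer, since 3 XLOC probes (XLOC_014105, XLOC_006766 and XLOC_000153) were well above background on every control and no knockdown array and 1 (XLOC_013868) on every knockdown and no control array. These are 0.0253% and 0.0084% of the XLOC probes. The same patterns held for 0.0357% and 0.0119% of RefSeq mRNA probes and for 0% and 0.0252% of RefSeq noncoding probes.

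The effect of 5-aza-dC was asked first over all clones, as the mean of its effects in control and knockdown clones. This fit, like those within each clone type below, did not pair the mock and treated array of a clone. Of 2509 XLOC probes tested, 199 were raised and 202 lowered. These are 7.93% and 8.05% of those tested, where over all 27281 probes of the array 7.21% were raised and 6.36% lowered. RefSeq mRNA probes were raised in 7.53% and lowered in 5.48% of 18399 tested, and RefSeq noncoding probes in 7.83% and 9.16% of 2108. The share of XLOC probes that responded was thus near that of the array as a whole. The median log2 change of the XLOC probes was -0.11 and that of all probes -0.07. The median log2 change of the lowered probes was -0.92. That of the raised probes was 2.07, which is not a measured size, since their mean signal in mock arrays was -5.11 to -4.51, near the lowest signals that count as well above background.

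The slide moved with part of this. With slide as a block 124 XLOC probes were raised and 119 lowered, and these include 112 of the 199 and 61 of the 202. Within slide 1, where 2 treated knockdown arrays met 3 knockdown mock arrays, the 199 raised probes had a median log2 change of 1.69 and all were positive. Within slide 2, where 3 treated control arrays met control mock clone 3, the median was 1.65 and 196 of 199 were positive. The 202 lowered probes had medians of -0.42 and -0.82 within the slides, and 196 and 202 were negative. Both sets were called on these same arrays, so their signs within a slide were largely set by that choice and give no separate support. Control mock clone 3, on slide 2, had a mean signal of -2.68 over the lowered probes, where clones 1 and 2 on slide 1 had -2.09 and -2.16. Without control clone 3 the counts were 215 raised and 438 lowered, and without control clone 1 they were 100 and 39. Without control clone 2 or knockdown clone 1, 2 or 3 they were 112 and 40, 113 and 60, 135 and 124, and 131 and 73. With clone as a block, which pairs the mock and treated arrays, 268 were raised and 239 lowered. With clone and slide both in the fit 85 were raised and 57 lowered. The part of the slide in the lowered calls was not tested further. Scaled on the array median in place of the 75th percentile, the median of all probes moved by a further -0.27, and the split changed to 172 raised and 756 lowered.

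The largest rise was that of XLOC_l2_015849 on the X chromosome. Its signal was -6.31, -6.51 and -6.23 in control mock clones and -6.47, -6.31 and -5.54 in knockdown mock clones. After 5-aza-dC it was 4.86, 3.02 and 3.72 in control clones and 4.44, 3.53 and 3.65 in knockdown clones. It went from below background in all mock arrays to well over the 75th percentile in all treated arrays, and the groups were far apart. The log2 change was 10.10 (SE 0.31, limma adjusted p = 3.71e-08, higher in 6 of 6 clones), and 10.18 with slide as a block. Since the mock arrays gave only a bound, the probe was at least 356-fold higher after treatment, as the treated mean over the lowest signal that counted as well above background on each mock array or its own signal there, whichever was higher. The nearest gene with a probe was ZFP92, a zinc finger gene 24.5 kb away on the opposite strand.

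XLOC_l2_015752, also on the X chromosome, was at -4.90, -6.21 and -5.15 in control and -5.40, -5.86 and -5.41 in knockdown mock clones. After treatment it was at 2.09, 1.19 and 1.34 in control and 1.24, 1.81 and 1.18 in knockdown clones. It rose by a log2 change of 6.96 (SE 0.26, limma adjusted p = 8.99e-08), at least 67.7-fold, with no overlap between mock and treated arrays. Within the clone types it rose at least 75.6-fold in control and at least 60.7-fold in knockdown clones, and since no mock array measured it, the sizes were not compared.

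XLOC_008015 lies on the X chromosome 8.35 kb from a probe for XIST, the RNA that coats the inactive X chromosome, on the opposite strand. That XIST probe was not tested, and a tested one is given below among the neighbours. In mock arrays XLOC_008015 was at -6.86, -7.03 and -4.42 in control and -6.56, -6.47 and -6.97 in knockdown clones. The high mock value is that of control clone 3, the mock control array on slide 2, though it too was not well above background. In treated arrays it was at -0.42, -1.57 and -0.80 in control and -2.20, -0.67 and -3.02 in knockdown clones. It rose by 4.94 (SE 0.51, limma adjusted p = 0.000142), at least 8.94-fold, and by 3.82 with slide as a block.

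XLOC_001613 on chromosome 2 varied more between clones. Its mock signals were -3.04, -6.56 and -6.32 in control and -5.50, -6.61 and -3.74 in knockdown clones, and it was well above background in 2 of the 6. Its treated signals were -0.55, -1.73 and -1.44 in control and -0.66, 0.89 and 0.07 in knockdown clones. It rose by 4.73 (SE 0.67, limma adjusted p = 0.00132), and with clone and slide in the fit the adjusted p was 0.055. Among the clone types it was called in knockdown clones (5.39, lost without any 1 of the 3) and not in control clones (4.06, adjusted p = 0.0659).

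The other 6 of the 10 raised loci named by size were XLOC_000477 on chromosome 1 (log2 change 4.72), XLOC_l2_014061 on chromosome 7 (4.57), XLOC_l2_001888 on chromosome 10 (4.40), XLOC_l2_010602 on chromosome 4 (4.39), XLOC_011265 on chromosome 15 (4.31) and XLOC_l2_011095 on chromosome 4 (4.08). Their mock signals all lay between -7.15 and -5.20 and their treated signals between -3.99 and -0.77. They were well above background on all treated arrays and on no mock array. Their rises were at least 6.35-fold, 4.91-fold, 5.74-fold, 5.01-fold, 4.52-fold and 4.12-fold, in the same order, and each was also called with slide as a block, with log2 changes of 3.72 to 4.35. No probe of a RefSeq gene lay within 500 kb of XLOC_l2_014061 or XLOC_l2_011095.

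**Figure D2:**
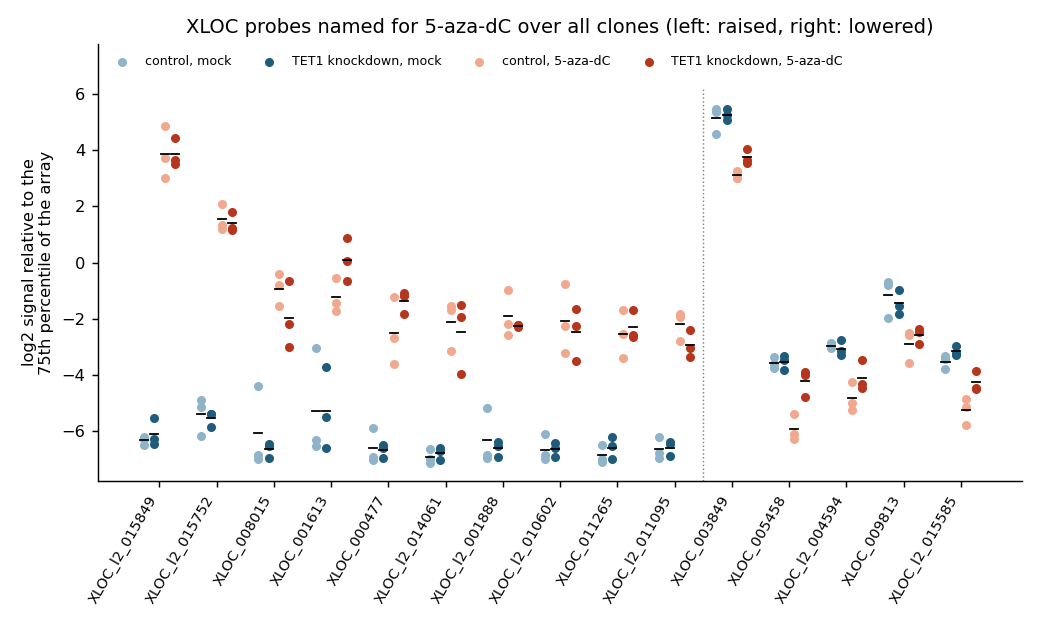
Log2 signal relative to the 75th percentile of the array (vertical axis) for the 10 raised and 5 lowered XLOC probes named over all clones. Each point is 1 array, bars are means of 3, and colours are the 4 groups. The raised probes start near the floor between -7.15 and -3.04 in mock arrays, while the lowered probes start between -3.85 and 5.48. Only the lowered probes had to be well above background on all mock arrays to be named.

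The named lowered probes were brighter to begin with, and the naming rule asks for this. A lowered probe had to be well above background on all mock arrays, and a raised one only on all treated arrays. XLOC_003849 on chromosome 4 was among the bright XLOC probes and was well above background on all 12 arrays. Its signal was 5.37, 5.48 and 4.59 in control and 5.48, 5.25 and 5.07 in knockdown mock clones. In treated clones it was 3.02, 3.27 and 3.02 in control and 3.67, 4.05 and 3.55 in knockdown clones. The log2 change was -1.78 (SE 0.18, limma adjusted p = 0.000112), and it was -1.66 within slide 1 and -1.49 within slide 2. When knockdown clones were compared on their own it was the 1 XLOC probe called lowered (-1.51, adjusted p = 0.025), a call that was lost without knockdown clone 1 or 3. The nearest gene with a probe was C4orf42, 37.1 kb away.

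XLOC_005458 on chromosome 6 was at -3.61, -3.38 and -3.77 in control mock clones and at -6.12, -6.29 and -5.39 after treatment. In knockdown clones it went from -3.35, -3.85 and -3.48 to -3.90, -4.79 and -4.03. The log2 change was -1.51 (SE 0.21, limma adjusted p = 0.00114), made of -2.35 in control clones, where it was called but lost without clone 1 or 2, and -0.68 in knockdown clones, where it was not (adjusted p = 0.578). No treated control array was well above background, so neither -1.51 nor -2.35 is a measured size. The fall in control clones was at least 1.83-fold. The difference between the clone types was not called.

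The other 3 lowered loci named by size were XLOC_l2_004594 on chromosome 15 (log2 change -1.45), XLOC_009813 on chromosome 12 (-1.43) and XLOC_l2_015585 on the X chromosome (-1.42). For XLOC_009813 the call was lost with slide as a block (-1.20, adjusted p = 0.064) and without control clone 2. For XLOC_l2_004594 and XLOC_l2_015585 it was kept with slide as a block and lost with clone and slide in the fit (adjusted p = 0.0503 and 0.0677). No treated control array was well above background for either of these, so their changes are not measured sizes.

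Control and knockdown clones were then compared with their own mock arrays, which the 2 comparisons do not share. In control clones 79 of 1912 XLOC probes tested were raised and 46 lowered, where 3.8% of all probes were raised and 1.53% lowered. In knockdown clones 48 of 2061 were raised and 1 lowered, where the shares of all probes were 2.04% and 0.0158%. The median log2 changes of XLOC probes were -0.05 and -0.12, and of all probes -0.05 and -0.09. The control count rests strongly on single clones. Without control clone 3, which leaves all mock arrays on slide 1 and all treated arrays on slide 2 so that slide and treatment cannot be told apart, 289 were raised and 489 lowered. Without control clone 2, 14 in all were called, and without control clone 1, 39. Within slide 2 alone, where the mock arm is 1 array that is assumed to vary like the others, 10 were raised and 0 lowered. With clone alone as a block 143 XLOC probes were called in control clones and 67 in knockdown clones. With clone and slide in the fit no XLOC probe was called in control clones, and 86 were in knockdown clones. Without knockdown clone 1 the count in knockdown clones was 9, and without knockdown clone 3 it was 18. Within slide 1 alone it was 75, of which 69 were raised.

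Of 1681 XLOC probes tested in both, 26 were called in both, all in the same direction, and 25 of them were raised. The 25 are 31.6% of the probes raised in control clones and 52.1% of those raised in knockdown clones. Of the 79 probes raised in control clones 58 were tested in knockdown clones, and of the 48 raised in knockdown clones 35 were tested in control clones. Raised probes were on average faint in mock arrays and could pass the filter through high treated arrays, so no direction or size is read from those that passed. Of the 46 control-lowered probes 44 were tested in knockdown clones and all 44 were negative there, with medians of -1.25 in control and -0.62 in knockdown clones. They were chosen for their fall in control clones and could pass the filter through high mock arrays. The treated control arrays were also all on slide 2, and the treated knockdown arrays mostly on slide 1. No direction or size is therefore read from these probes either. The difference between the 2 effects was tested as an interaction over the 12 arrays, and 0 of 2509 XLOC probes were called by limma, where 0.033% of all probes were. At an unadjusted p below 0.05 there were 113.

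**Figure D3:**
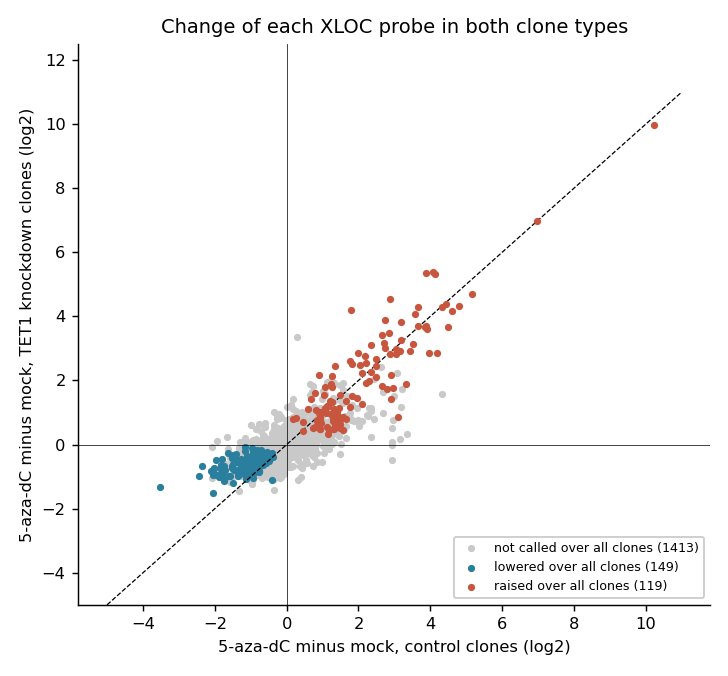
Log2 change under 5-aza-dC in control clones (horizontal axis) and in TET1 knockdown clones (vertical axis) for the 1681 XLOC probes tested in both. Each point is 1 probe, coloured by its call over all clones, and the dashed line marks equal changes. Raised probes reach 10.22 in control and 9.98 in knockdown clones, where values of probes at background in mock arrays are not measured sizes. Lowered probes lie mostly above the dashed line, closer to 0 in knockdown clones, where slide and treatment were combined differently than in control clones.

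Some probes lowered in control clones had 1 knockdown array that went with them. XLOC_003429 on chromosome 4 was at -2.45, -2.52 and -1.36 in control mock clones and at -5.15, -5.66 and -6.10 after treatment (log2 change -3.53, SE 0.40, limma adjusted p = 0.00678), at least 5.09-fold lower. In knockdown clones it was at -2.57, -2.39 and -2.59 in mock arrays and at -2.76, -6.19 and -2.53 in treated ones. The low array is that of knockdown clone 2, the treated knockdown array on slide 2. XLOC_010730 on chromosome 13 and XLOC_014357 on chromosome 22 were also lowest in that array. Treated knockdown clones were at -2.98, -5.04 and -2.91 and at -5.05, -6.43 and -4.70. XLOC_014357 was not well above background on any knockdown mock array and was not tested in knockdown clones. Control mock clone 3, on slide 2 as well, was at -1.36, -3.50 and -3.69 for the 3 probes, which was the highest mock array for XLOC_003429 and XLOC_014357 and the lowest for XLOC_010730. The calls of all 3 in control clones were lost without control clone 2, and those of XLOC_010730 and XLOC_014357 also without control clone 1. Within slide 1 their changes in knockdown clones were -0.13, -0.28 and -0.17, and within slide 2, against that 1 mock array, their changes in control clones were -4.28, -1.72 and -3.02. The -0.17 of XLOC_014357 starts from background in mock arrays and is not a measured size. No treated control array was well above background for the 3 probes, so their changes within slide 2 are not measured sizes either.

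Very few XLOC probes differed between TET1 knockdown and control clones. In mock clones 0 of 2029 were higher and 3 were lower in knockdown than in control clones, where 0.137% of all probes were called. At an unadjusted p below 0.05 there were 195. All 3 lay on chromosome 8. After 5-aza-dC 1 of 1930 was higher and 3 were lower, where 0.068% of all probes were called, and 404 had an unadjusted p below 0.05. Leaving out single clones moved the mock count from 3 to 5 without control clone 3, 15 without knockdown clone 2 and 1 without knockdown clone 3. It moved the treated count to 2 without control clone 1, to 0 without control clone 2 or 3 or knockdown clone 1 or 3, and to 799 without knockdown clone 2, which leaves all treated knockdown arrays on slide 1 and all treated control arrays on slide 2, so that slide and clone type cannot be told apart.

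XLOC_006766, at chr8:31258549-31258608 on the plus strand of hg19, separated the clone types under both treatments. It was at -1.22, -1.55 and -1.36 in control mock clones and -6.72, -6.58 and -7.02 in knockdown mock clones. After 5-aza-dC it was at -1.79, -1.46 and -2.19 in control and -6.21, -5.52 and -6.27 in knockdown clones. The log2 difference was -5.40 in mock clones (SE 0.20, limma adjusted p = 0.000544), at least 8.8-fold, and -4.19 in treated clones (SE 0.30, adjusted p = 0.0178), at least 6.77-fold. Within slide 1 alone the mock difference was -5.39 (adjusted p = 0.00533), and within slide 2 alone, which holds 1 treated knockdown array, the treated difference was -3.71 (adjusted p = 0.12). It was not well above background on any knockdown array. XLOC_006765, the neighbouring locus on the same strand, was lower by 3.47 on the log2 scale in knockdown mock clones (-2.58, -3.34 and -2.53 against -6.38, -6.31 and -6.17, limma adjusted p = 0.00887) and, since no knockdown array measured it, at least 3.25-fold lower, a call lost in 7 of 18 other settings, among them without control clone 1 or knockdown clone 1 or 3. After treatment both clone types were low there, with -4.83, -4.99 and -4.07 against -6.66, -6.11 and -6.91. The nearest gene with a probe was WRN, a DNA helicase gene, 217 kb from XLOC_006765 and 228 kb from XLOC_006766.

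XLOC_007123, elsewhere on chromosome 8, was at -3.46, -3.06 and -3.68 in control and -6.50, -5.93 and -6.89 in knockdown mock clones (log2 difference -3.04, SE 0.31, limma adjusted p = 0.0333). None of these knockdown arrays measured it, and it was at least 2.16-fold lower. In treated knockdown clones it was at -4.99, -2.72 and -6.36, and clone 2 reached the level of the treated control clones, which were at -3.59, -2.998 and -3.25. Its call was lost in 13 of 18 other settings, among them without any single clone but knockdown clone 2.

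Of the probes called after treatment, XLOC_l2_006665 on chromosome 19 was at -2.49, -1.65 and -1.47 in control and -6.82, -6.30 and -7.08 in knockdown clones (log2 difference -4.87, SE 0.35, limma adjusted p = 0.0178), at least 6.51-fold lower. In mock arrays it was at -2.78, -1.80 and -1.73 in control clones and at -3.40, -6.46 and -6.92 in knockdown clones, so that knockdown clone 1 was high before and low after treatment. XLOC_003204 on chromosome 3 was higher in knockdown clones, at -2.89, -2.71 and -2.82 against -4.71, -4.80 and -4.62 (1.91, SE 0.18, adjusted p = 0.0375), at least 3.14-fold. In mock arrays its groups overlapped. In other settings the call of XLOC_l2_006665 was lost in 9 of 18, that of XLOC_006766 after treatment in 9 of 18 and that of XLOC_003204 in 11 of 17. Without single clones, the first was kept without control clone 1 and knockdown clone 2, and the others without knockdown clone 2 only. XLOC_005976 on chromosome 7 had a log2 difference of -5.87 (adjusted p = 0.0262), and its spots were marked as outliers on treated control clone 1 and treated knockdown clone 2, so the fit dropped these arrays. It is outside the naming rule and was chosen after its values were seen.

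Where XLOC probes lie near a gene that responds to 5-aza-dC, the comparison was made over all clones by the gap between probe positions, where a gene probe is one with a RefSeq mRNA or noncoding accession. Both calls come from the same arrays, so the shares are a description without a test. Of 193 tested XLOC probes within 50 kb of a raised gene probe, 30 were raised (15.5%) and 13 lowered (6.74%). Of 152 within 50 kb of a lowered gene probe, 8 were raised (5.26%) and 21 lowered (13.8%). Of 818 with tested gene probes in that window but none called, 50 were raised (6.11%) and 62 lowered (7.58%). Of 1325 with no tested gene probe in it, 113 were raised (8.53%) and 101 lowered (7.62%). With the array median as scale, 29.7% of XLOC probes near a lowered gene were lowered, beside 30.1% of all tested XLOC probes, so the difference for lowered probes was not seen at that scale.

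At 10 kb the shares were further apart, and at 500 kb they were close together. Within 10 kb of a raised gene probe 10 of 54 XLOC probes were raised (18.5%), and within 10 kb of a lowered one 11 of 48 were lowered (22.9%) and 0 were raised. On the same strand 7 of 26 near a raised gene were raised and 0 lowered, and 8 of 32 near a lowered gene were lowered and 0 raised. Some of these gene probes overlap the XLOC probe, so that their signals may not be separate. LINC00264 and XLOC_008419 lay 0 kb apart and share 45 bases, and LOC100289019 and XLOC_007858 lay 0 kb apart and share 29. On the opposite strand 3 of 28 near a raised gene were raised and 4 lowered. Within 500 kb 84 of 985 were raised near a raised gene (8.53%). The same count for RefSeq mRNA probes, with genes of another symbol as neighbours, gave 11.3% raised within 50 kb and 11.1% within 10 kb of a raised gene. Counting only RefSeq mRNA probes as neighbours, 14.3% of 147 XLOC probes within 50 kb of a raised gene were raised. Near a lowered gene 10.9% of 92 were lowered. With slide as a block 9.86% of 142 XLOC probes near a raised gene were raised, where 4.94% of all tested XLOC probes were. With a clone left out the share ran from 7.84% (without knockdown clone 2, where 5.53% of all tested XLOC probes were raised) to 14.9%. That of lowered probes within 50 kb of a lowered gene ran from 4.76% (without knockdown clone 1, where 2.48% of all were lowered) to 16.8%.

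**Figure D4:**
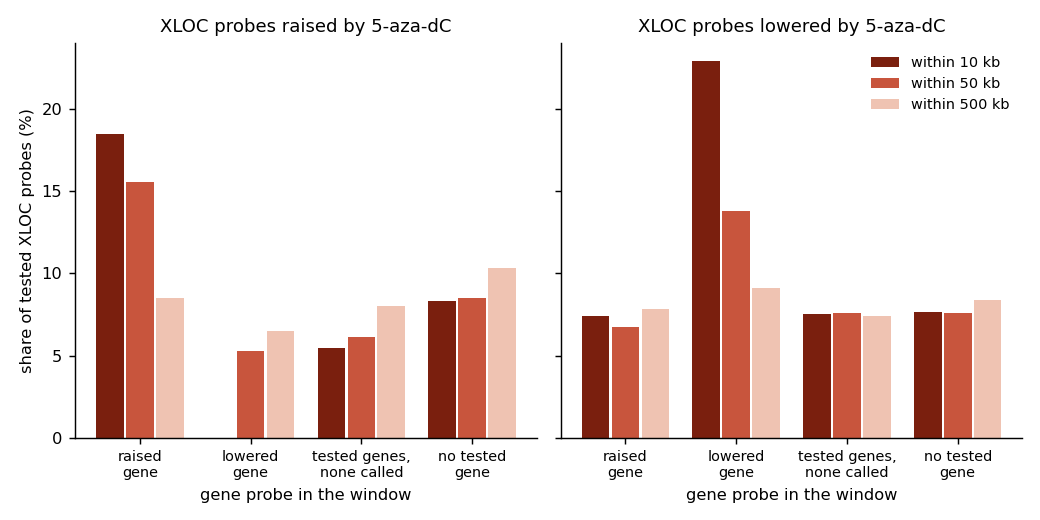
Share of tested XLOC probes raised (left) or lowered (right) over all clones (%, vertical axis), by the response of gene probes in the window (horizontal axis) and by window size (shade). The highest bars are 18.5% raised within 10 kb of a raised gene and 22.9% lowered within 10 kb of a lowered gene, and the bars for 500 kb lie between 6.47% and 10.3%.

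There were 68 called XLOC probes with a called gene probe within 50 kb. Distances to a gene, here and above, are gaps to its probe, and the gene itself may lie nearer. For 47 all such genes moved the same way, for 17 all moved the opposite way and for 4 there were both. XLOC_l2_015752 lay 49.5 kb from ACRC, a gene of a germ cell nuclear protein, which rose by 4.03 on the opposite strand (adjusted p = 2.95e-06). A nearer probe, for LOC100132741 at 39.8 kb, was not called (-0.20, limma adjusted p = 0.748). XLOC_008015 lay 26.1 kb from a probe for XIST on the opposite strand. This XIST probe rose by 5.40 (limma adjusted p = 3.87e-07) and was well above background on 6 arrays. XLOC_008752 on chromosome 10 went from mock signals of -5.40 to -4.69 to treated signals of -1.68 to -0.38 (log2 change 3.75, adjusted p = 2.09e-06). It lay 10.1 kb from APBB1IP, an adaptor in integrin signalling, which rose by 2.40, and 15.1 kb from the noncoding LINC00264, which rose by 2.15.

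XLOC_009146 on chromosome 11 rose by 3.31 (limma adjusted p = 0.000598), 8.70 kb from SYT7, a calcium sensor of vesicle fusion, which rose by 1.98. XLOC_l2_015037 on chromosome 9 rose by 3.17 and the noncoding LOC100506190, 3.16 kb away on the same strand, by 2.09. XLOC_009378 on chromosome 11 rose by 3.00 and LOC100506305, 0.517 kb away on the same strand, by 3.72. The call of XLOC_009378 depends on the slide, with an adjusted p of 0.176 with slide as a block and a change of -1.04 within slide 2, where control mock clone 3 was at -0.54 and the treated control clones were at -0.13, -1.93 and -2.69. XLOC_009880 on chromosome 12 rose by 2.55, 47.9 kb from a probe for the adaptor gene SH2B3, which rose by 0.60. A nearer probe, for FAM109A at 41.8 kb, was not called (0.20, limma adjusted p = 0.438). The call of XLOC_009880 too was lost with slide as a block (adjusted p = 0.182) and without control clone 1 or 2 or knockdown clone 2. That of XLOC_009378 was kept without control clone 3 and lost without any other clone.

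Neighbours could also part. XLOC_002151 on chromosome 2 rose by 2.94 (limma adjusted p = 0.00024), while LOC100133985, 30.3 kb away on the same strand, fell by 0.98. A nearer probe, for PCBP1 at 5.3 kb, was not called (0.01, limma adjusted p = 0.966). XLOC_l2_009311 on chromosome 22 rose by 2.87 (adjusted p = 1.25e-05), while a probe for LOC400891, 21.1 kb away, fell by 0.68. A nearer probe for LOC400891, 5.86 kb away on the same strand, was not tested. XLOC_005110 on chromosome 5 had a probe raised by 3.03 (adjusted p = 0.0457, lost in 7 of 15 other settings, 5 of them with a single clone left out) and another lowered by 1.20, and of the genes near it MGAT1, a glycosyltransferase gene, rose by 0.45. LOC729678 had a probe raised by 2.95, which was well above background on 4 arrays, and a nearer probe, 4.48 kb away, at -0.72 that was not called (adjusted p = 0.223).

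Of 2002 XLOC loci tested, 354 had a called probe. Among the 329 loci with 2 or more tested probes, 233 had none called, 14 had all raised, 6 had all lowered and 74 had some called in 1 direction and others not. The probes of XLOC_005110 and XLOC_013559 were called in both directions. Called XLOC probes within 50 kb of each other formed 40 groups, of which 20 were all raised, 16 all lowered and 4 mixed, and 30 held a single locus. At XLOC_008015, within 0.82 kb, the other called probe rose by 0.73 beside 4.94, both from mock signals below background. On chromosome 2, 2 probes of XLOC_001613 rose by 4.61 and 4.73 and XLOC_l2_007478, within a span of 41.7 kb, by 3.32. The second probes of XLOC_000477, XLOC_l2_010602 and XLOC_l2_011095 rose by 2.41, 2.65 and 2.77, where the first probe of each locus was chosen for the larger change.

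Chromosome 4 and the X chromosome had the highest shares of raised XLOC probes. On chromosome 4, 22 of 144 tested were raised (15.3%), or 17 of 112 loci (15.2%), while 8.10% of RefSeq mRNA probes there were. On the X chromosome 12 of 92 were raised (13.04%), or 11 of 68 loci (16.2%), and 16.1% of RefSeq mRNA probes there were. With slide as a block the shares were 11.1% and 10.9%. The X chromosome also had the highest share of lowered XLOC probes (14.1%), followed by chromosome 17 (12.1%), 15 (11.3%) and 7 (11.2%). With the array median as scale the order was another, with 40.7% on chromosome 17, 38.1% on 10 and 37.0% on X. Of the 257 XLOC probes on the X chromosome 49.8% were well above background on at least 1 array, and the share ran down to 31.0% on chromosome 5. These shares were not tested.

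**Figure D5:**
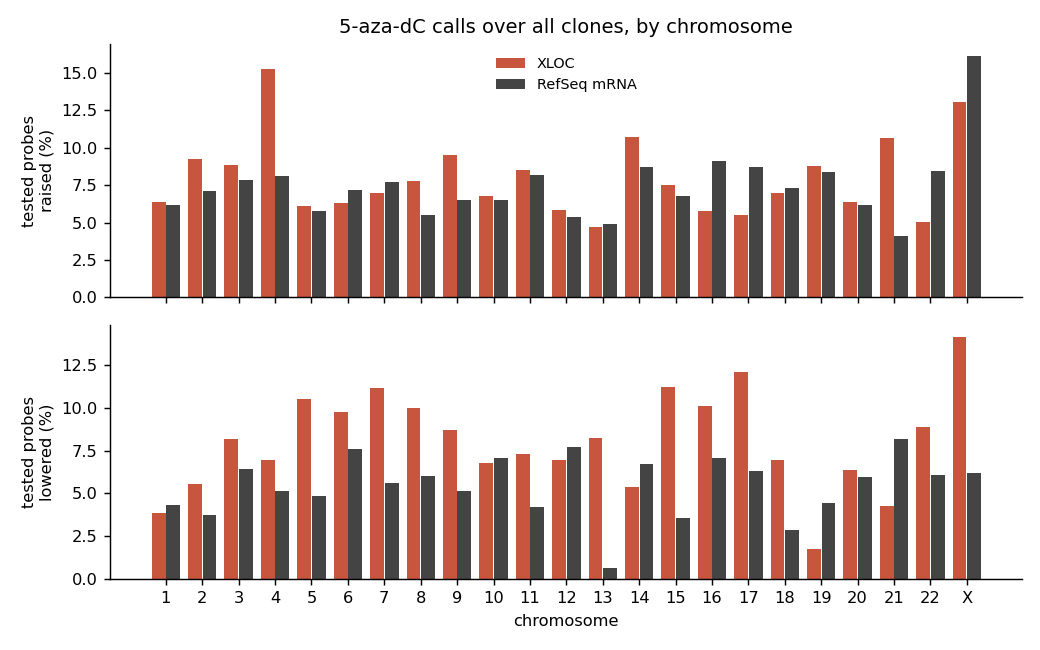
Share of tested probes raised (top) and lowered (bottom) by 5-aza-dC over all clones (%, vertical axes) on each chromosome (horizontal axis), for XLOC and RefSeq mRNA probes. Chromosome 4 stands at 15.3% raised XLOC probes against 8.10% of mRNA probes, and on the X chromosome both classes are high, at 13.04% and 16.1%.

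In base composition, raised XLOC probes had a median GC content of 40%, lowered probes 45% and probes not called 43.3%. At least 1 CG was present in 48.7% of raised, 45.5% of lowered and 46.4% of uncalled probes, and in 43.1% of all XLOC probes. The largest riser, XLOC_l2_015849, has none in the sequence shown above, and XLOC_l2_015752 and XLOC_008015 have 2 each. The sequence of a probe is not that of the promoter. Names with l2 made up 63 of 199 raised and 82 of 202 lowered probes.

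Some XLOC probes share sequence, so that their signals may not be separate. Of the 401 probes called over all clones, 24 had a run of 20 or more bases in common with a probe of another name. The pairs below hold loci that rose together, with the shared run in capitals. XLOC_l2_015752 and XLOC_008183, at chrX:70940588-70940647, share 22 bases and rose by 6.96 and 3.68. XLOC_l2_001888, at chr10:26953176-26953235, and XLOC_008752, at chr10:26866643-26866702, share 31 bases and rose by 4.40 and 3.75.
XLOC_l2_015752: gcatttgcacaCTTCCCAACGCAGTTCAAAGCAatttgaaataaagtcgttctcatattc
XLOC_008183: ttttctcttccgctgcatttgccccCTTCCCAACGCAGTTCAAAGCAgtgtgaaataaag
XLOC_l2_001888: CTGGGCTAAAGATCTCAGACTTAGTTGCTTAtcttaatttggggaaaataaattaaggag
XLOC_008752: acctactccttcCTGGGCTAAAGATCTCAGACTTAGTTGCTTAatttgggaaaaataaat

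Long noncoding RNAs that carry a symbol gave a contrast in level. Each symbol was read at its brightest probe, while the XLOC share counts every probe. Of a list of 20, 17 were on the array and 13 were well above background on all 12 arrays, where 8.74% of XLOC probes were. Over all clones 15 were tested, of which H19, an imprinted RNA, was raised (log2 change 1.55, limma adjusted p = 0.000735) and MEG3, also imprinted, was lowered (-0.74, adjusted p = 0.0295). H19 was well above background on 6 arrays only, so its change is not a measured size. At these probes the other 13 were not called, among them MALAT1 (-0.21) and NEAT1 (0.30), both abundant nuclear RNAs. Another MALAT1 probe, well above background on all 12 arrays, was lowered (-0.92, limma adjusted p = 0.0376). The median of the 15 was 0.25, beside -0.07 for all probes. None was called between knockdown and control clones or in the interaction.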

How the data were processed

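Total RNA of 6 Colo320DM clones was hybridised to 12 Agilent arrays. In the deposited files each spot has an intensity, extracted by the authors with Agilent Feature Extraction 10.7 with background subtraction and without normalization between arrays. A deposited table of the series gives this intensity after rounding and served as an alternative. For each array, spots marked as outliers were left out, spots of a probe were averaged, and the signal was divided by the 75th percentile over probes and taken to log2. The authors deposited no log2 values. Positions are those of the files (hg19).

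Tests used limma 3.58.1 in R 4.3.3 (lmFit, eBayes, two-sided) with Benjamini-Hochberg adjustment over all probes tested, and were tested on simulated data. Tables were made with Python 3.11.15. The arrays of a group limit the precision to 3 clones. Mock and treated arrays of 1 number are the same clone: their deviations from the group means correlated at 0.213 to 0.316 in control and 0.431 to 0.525 in knockdown clones. The main fits did not pair these arrays, and a clone block was an alternative. Named were, 1 probe per locus, the 10 raised and 5 lowered with the largest change over all clones, and up to 5 each way in comparisons of 2 groups, among called probes with groups that do not overlap and detected above background in all arrays of whichever group was brighter. For nearness the 10 largest called probes with a called gene within 50 kb were named, and for groups of probes the 5 largest. The members, lists and rules were chosen with earlier results of these data known. The planned comparison with lincRNA probes used RefSeq noncoding probes instead, since no probe name of that form was found. Alternatives were other normalizations, filters, blocks and left-out clones, and fits within 1 slide, which were added after seeing the data.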

Additional observations from a re-analysis of the deposited data

How the results depend on the processing

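Counts of called XLOC probes moved with the scale, the filter, the slide and single clones. Fits within slide 2 have an arm of 1 array, assumed to vary like the others. Over all clones 401 were called, and 928 were with the array median as scale, 150 with probes well above background on every array, 243 with slide as a block, 142 with replicate block and slide, and 139 to 653 with a clone left out. In control clones 125 were called, and 331 with the array median as scale, 27 with probes well above background on every array, 21 with the methods' t-test after Benjamini-Hochberg adjustment, 42 with slide as a block, 0 with replicate block and slide, 10 within slide 2 alone and 14 to 778 with a clone left out. In knockdown clones 49 were called, and 16 with normexp and quantile normalization, 3 with probes well above background on every array, 22 with the methods' t-test, 86 with replicate block and slide, 75 within slide 1 alone and 9 to 72 with a clone left out. Between clone types 3 were called in mock clones, and 1 with normexp and quantile normalization, 0 with probes well above background on every array, 1 with the methods' t-test, 5 within slide 1 alone, 6 with all 12 arrays in 1 fit and 1 to 15 with a clone left out. After treatment 4 were called, and 1 with normexp and quantile normalization, 0 with probes well above background on every array, 0 with the methods' t-test, 0 within slide 2 alone, 11 with all 12 arrays in 1 fit and 0 to 799 with a clone left out. The interaction had 0, and 1 with slide as a block, with 0 to 1 with a clone left out.

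Control and knockdown clones of 1 number share only that number. With it as a replicate block 1 probe was called in mock and 1 in treated clones, and with replicate block and slide 0 and 0.

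XLOC probes well above background on at least 1 of 3 arrays were 2851 in control mock, 2607 in knockdown mock, 2635 in treated control and 2779 in treated knockdown clones, and with a clone left out the counts on all arrays were 1461 to 1922, 1553 to 1720, 1491 to 1583 and 1466 to 1912. The share raised near a raised gene was 15.5%, 8.53% at 500 kb, 9.86% with slide as a block and 7.84% to 14.9% with a clone left out. The share lowered near a lowered gene was 13.8%, 22.9% at 10 kb, 29.7% with the array median as scale and 4.76% to 16.8% with a clone left out. With the array median as scale 30.1% of all tested XLOC probes were lowered, 27.1% on chromosome 4 and 37.0% on the X chromosome. The causes were not tested beyond these settings.

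Of 45 named results none changed direction under the settings counted, and over these settings 555 values kept their side of the threshold and 136 did not. The count leaves out the changes within 1 slide for results over all clones. There XLOC_009378 turned, with 3.00 over all clones and -1.04 within slide 2. Probes not well above background give only bounds, which limits the faint XLOC transcripts most.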
